A study of Mus musculus with 4 samples.

Results

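The LKB1 partner genes and the AMP-activated protein kinase (AMPK) subunit genes were followed across the cell types of mouse lung tumors. The 10 genes were taken by symbol from the features of a single-cell RNA-seq matrix of 31055 features. They are Strada and Stradb (the STRAD pseudokinases), Cab39 and Cab39l (the MO25 scaffolds), Prkaa1 and Prkaa2 (the AMPK catalytic α subunits), Prkab1 and Prkab2 (the β subunits), and Prkag1 and Prkag2 (the γ subunits). Each of the 10 had UMIs, that is, counts of distinct captured RNA molecules.

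Tumors came from 4 female mice in 2 cohorts on a mixed C57BL/6J:129 background. All 4 carried Lkb1XTR/XTR, that is, a gene trap in both Lkb1 (Stk11) alleles. The 2 Restored mice were Rosa26LSL-tdTomato/FLPo-ERT2, and the 2 Non-Restored mice had Rosa26LSL-tdTomato without FLPo-ERT2. All received Lenti-Cre through the trachea, carried tumors for 16 weeks and were given tamoxifen in 4 mg doses over 2 weeks. Cre switches on the TdTomato reporter and turns the trap so that Lkb1 transcripts end early, and FLPo-ERT2 with tamoxifen takes the trap out. Cre acts in the cells that the virus reached, whichever type they are, so any class below can hold cells with and without a recombined Lkb1 allele. Viable cells of dissected tumors were sorted without selection on the reporter, so immune and vascular cells are included. The deposited matrix pools the 4 mice and gives cells no mouse, so the data amount to 1 sample. Restored and Non-Restored cells could not be separated, no test between groups was possible, and every interval below is a 95% interval for counting error only.

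LKB1 is a serine/threonine kinase that is active as a trimer with a STRAD pseudokinase and an MO25 scaffold. Its best studied substrate, AMPK, is itself a trimer of α, β and γ subunits that senses low cellular energy through adenine nucleotides bound to γ, and that slows lipid and protein synthesis and favors catabolism and autophagy. The STRAD and MO25 places and every place in AMPK can be filled by paralogs, so the composition of each pair was compared between cell types.

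The site at which LKB1 activates AMPK is a threonine in the activation loop of the α subunit. The coding sequence around it is shown for both α genes because they differed in which cell types held their RNA, with the threonine codon in capitals.
Prkaa1: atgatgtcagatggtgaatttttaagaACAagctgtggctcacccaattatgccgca
Prkaa2: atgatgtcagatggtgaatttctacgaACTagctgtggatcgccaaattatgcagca
The Prkaa1 stretch is in exon 5 of 9 at chr15:5169940-5169996 on the plus strand, and the Prkaa2 stretch is in exon 5 of 9 at chr4:105049354-105049410 on the minus strand (GRCm38, GENCODE vM21). The threonine is residue 183 of Prkaa1 and residue 172 of Prkaa2 in these transcripts. The 57 bases differed at 7 positions and encoded the same 19 residues, so the LKB1 site itself is shared. Over the whole protein, 76.2% of 546 aligned residues were identical between Prkaa1 and Prkaa2. The other pairs had 46.8% identity for Strada and Stradb, 82.0% for Cab39 and Cab39l, 71.3% for Prkab1 and Prkab2 and 74.2% for Prkag1 and Prkag2.

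After filtering, 19488 of 20351 cells remained, and 15787 of them fell into 13 classes by a per-cell gate on marker genes. The classes held 102 to 3919 cells, with median depths from 920 UMIs per cell (neutrophil-like) to 5476 (alveolar macrophage-like). Levels are given as CPM, which is a gene's UMI sum in a class for every 1000000 UMIs of that class. Markers of each class's own list were raised at least 2-fold, for example 14 of 14 in epithelial-like and 10 of 10 in neutrophil-like cells. The gate used these same lists, so this describes the classes and is not an independent check of them. In 3 classes the separation was weaker. Monocyte-like and mast or basophil-like cells raised 7 of 9 markers, the neutrophil list had a median of 7702 CPM in mast or basophil-like cells, and the monocyte list had 4514 CPM in plasmacytoid dendritic-like cells. Their part in the values of those 3 classes was not tested. The neutrophil list also holds Hdc, a leading gene of mast or basophil-like cells, and how much of the 7702 CPM came from it was not measured. The reads come from the 3′ end of transcripts and do not scale with gene length, so levels of different genes are not compared with each other.

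**Figure D1:**
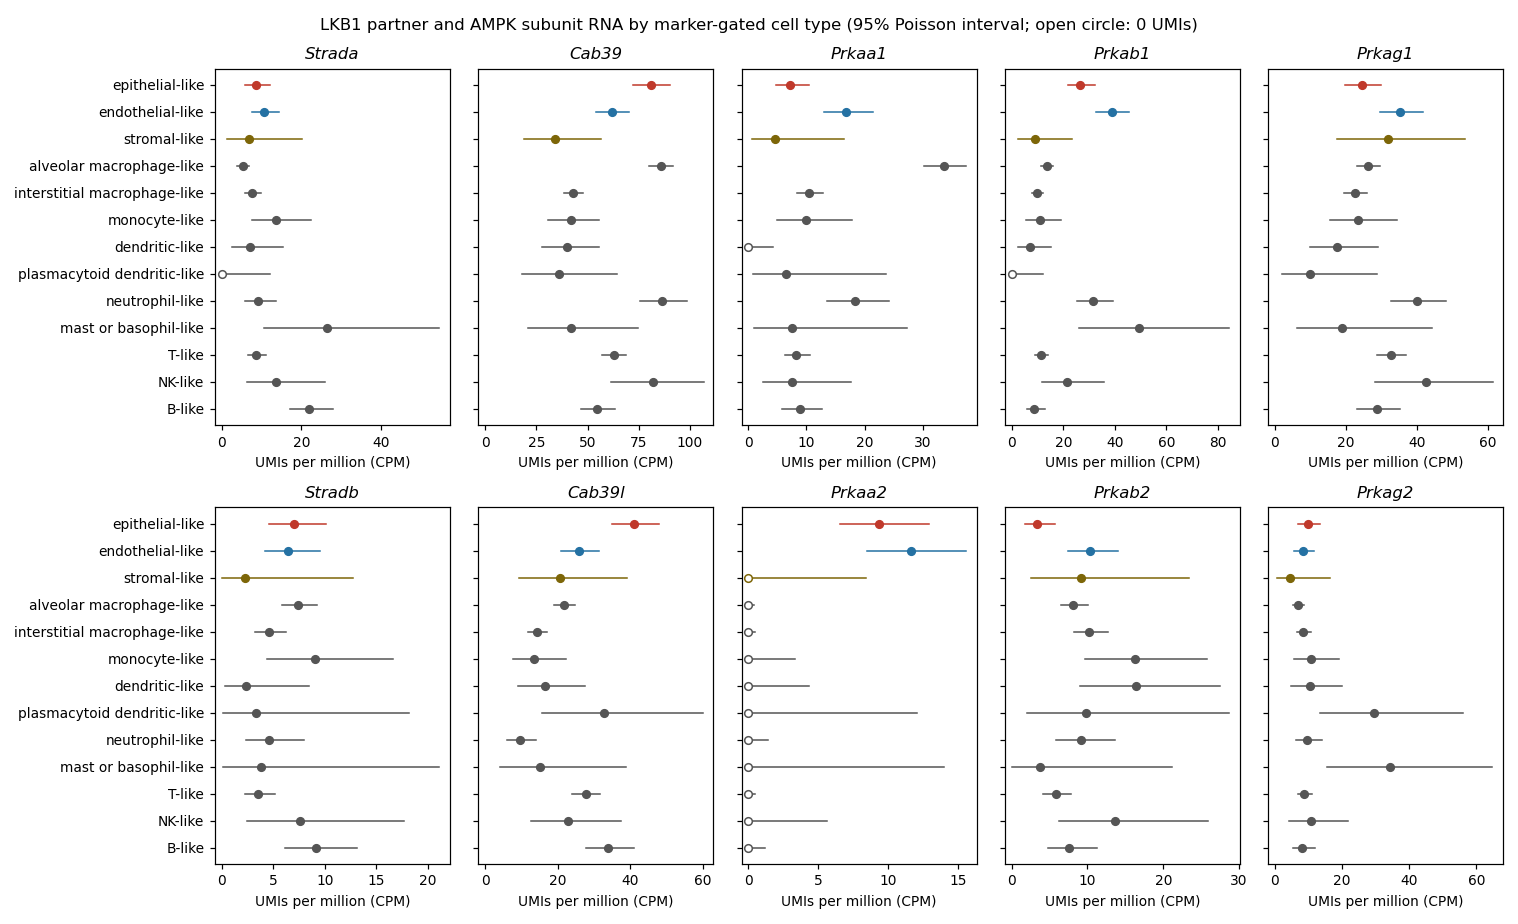
Level of each of the 10 genes (x axis, CPM, linear) in 13 marker-gated cell types (y axis). Points are the UMI sums of a type over its total, lines are 95% Poisson intervals, and open circles mark types with 0 UMIs. Prkaa2 had UMIs in epithelial-like and endothelial-like cells, and Prkaa1 was highest in alveolar macrophage-like cells at 33.7 CPM.

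Prkaa2 RNA was found in the epithelium and the endothelium and in none of the immune classes. The gene had 113 UMIs in 103 cells of the whole matrix, with at most 3 in a cell. Epithelial-like cells held 36 UMIs (9.32 CPM, 6.52 to 12.9) and endothelial-like cells held 45 (11.6 CPM, 8.48 to 15.6). These 2 levels did not differ beyond counting error, with an endothelial over epithelial ratio of 1.25 (0.787 to 1.99). The 10 immune classes had 0 UMIs among 34848908 in 12877 cells. A limit of 3 counts in that total is 0.0861 CPM. The Prkaa2 level was 108-fold that limit in epithelial-like and 135-fold in endothelial-like cells. These 2 ratios leave out the counting error of the 36 and 45 UMIs and are not bounds. The same immune cells held 585 UMIs of Prkaa1, so α subunit RNA was captured there. The limit is for the 10 immune classes pooled, and the bounds of the small ones were wider. The upper bound was 12.1 CPM in plasmacytoid dendritic-like and 14.0 CPM in mast or basophil-like cells. Both lay above the epithelial and endothelial levels, so neither class on its own is shown to be lower. Stromal-like cells also had 0 UMIs of Prkaa2, but among 437311 UMIs in all the interval reached 8.44 CPM. The lower bound of the ratio over stromal-like cells was 1.05 for epithelial-like and 1.32 for endothelial-like cells, so these differences only just passed counting error.

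The remaining 32 UMIs of Prkaa2 were in cells outside the 13 classes. The filter or the gate had left these cells out, except a single ciliated or club cell with 2 UMIs, whose class was too small. By their leading marker list, 21 were in cells led by epithelial markers, 9 by endothelial markers and 2 by ciliated or club cell markers. No UMI was in a cell led by an immune list, and 27 of the 32 were in cells removed by the upper limits on genes and mitochondrial share. Within the epithelium, 32 of the 36 UMIs were in the 662 alveolar type II (ATII)-like cells, where the level was 10.7 CPM. The 130 alveolar type I (ATI)-like cells had 0 UMIs with an upper bound of 11.3 CPM, so the depth does not separate the 2 states.

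Prkaa1, the other catalytic subunit gene, was detected in 12 of the 13 classes and had its highest level in alveolar macrophage-like cells. Those cells held 341 UMIs, or 33.7 CPM (interval 30.2 to 37.4). Neutrophil-like cells followed with 18.3 CPM (13.5 to 24.2) and endothelial-like cells with 16.8 CPM (12.96 to 21.4), which did not differ beyond their counting error. The other classes with UMIs lay between 4.57 CPM in stromal-like and 10.5 CPM in interstitial macrophage-like cells, with epithelial-like cells at 7.24 CPM (4.82 to 10.5). Dendritic-like cells had 0 UMIs in 854738, an upper bound of 4.32 CPM. The alveolar macrophage level was above each of the other 12 classes, with ratios from 1.84 (1.36 to 2.55) over neutrophil-like to 7.36 (2.02 to 61.0) over stromal-like cells, and a lower bound of 7.76 for the ratio over dendritic-like cells.

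Alveolar macrophage-like cells were also above both the interstitial macrophage-like and the epithelial-like cells at equal depth. When every cell was thinned to 1000 UMIs and shallower cells were left out, 67 of 1825 alveolar macrophage-like cells (3.67%, 2.86 to 4.64) had a Prkaa1 UMI, against 19 of 1880 interstitial macrophage-like cells (1.01%, 0.610 to 1.57) and 10 of 904 epithelial-like cells (1.11%, 0.532 to 2.02). The same thinning gave Prkaa2 in 25 of 1661 endothelial-like (1.51%, 0.976 to 2.21) and 6 of 904 epithelial-like cells (0.664%, 0.244 to 1.44), and in 0 of 3675 T-like cells. No class here is known to lack Prkaa1 or the other partners and subunits, so free RNA in the droplets could not be measured for them.

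Read as composition, Prkaa2 made up 56.2% (43.3 to 68.6) of the 64 α UMIs in epithelial-like and 40.9% (31.6 to 50.7) of the 110 in endothelial-like cells. It was 0 of 341 in alveolar macrophage-like cells, an upper bound of 1.08%, and 0 of 87 in interstitial macrophage-like cells, an upper bound of 4.15%. In T-like cells it was 0 of 61 and in neutrophil-like cells 0 of 48, with upper bounds of 5.87% and 7.40%. The α composition of the epithelium and endothelium therefore lay outside the intervals of the 4 immune classes with the most α UMIs. Since 3′ capture can differ between the 2 transcripts, these shares are compared across classes and are not molar ratios.

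**Figure D2:**
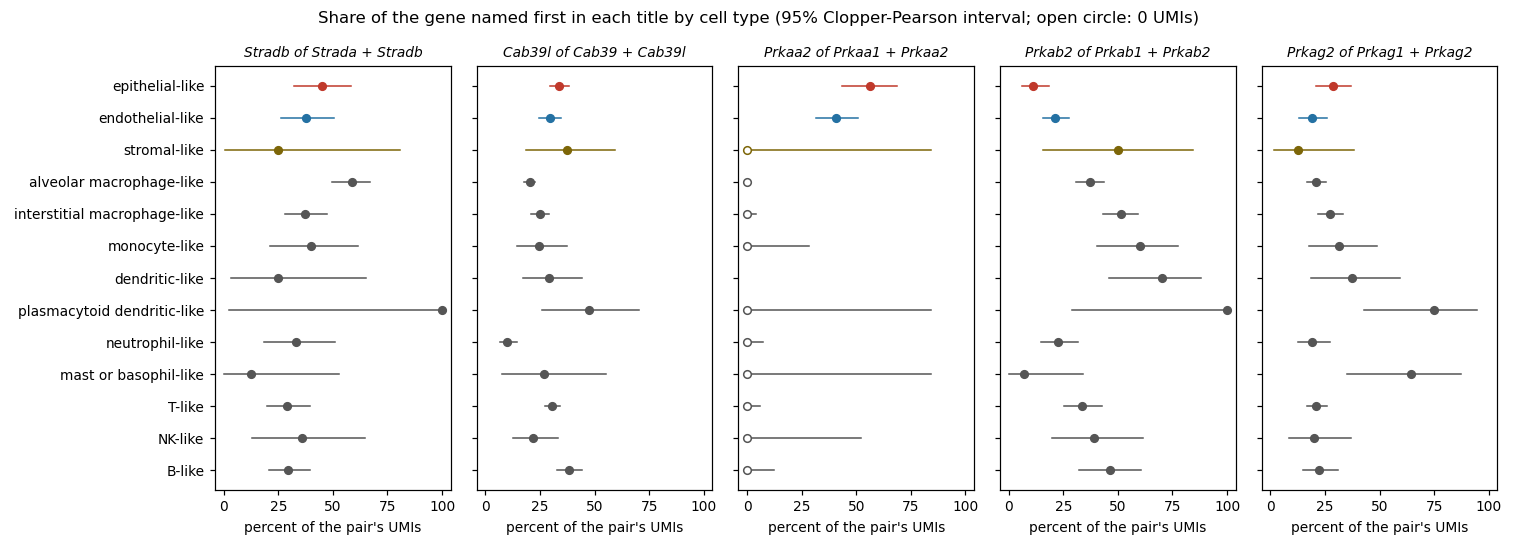
Share of each pair's UMIs that came from the gene named first in the panel title (x axis, percent) by cell type (y axis), with 95% Clopper-Pearson intervals; open circles mark 0 UMIs, and dendritic-like cells have no point for Prkaa2 because neither α gene had a UMI there. Prkaa2 was 56.2% in epithelial-like cells and 0 in the immune classes, and Prkab2 was 11.2% in epithelial-like against 51.2% in interstitial macrophage-like cells.

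The β subunits carry the glycogen-binding module of AMPK and hold the trimer together. Prkab1 was highest in mast or basophil-like cells, at 49.3 CPM from 13 UMIs (26.2 to 84.3), followed by endothelial-like cells at 38.7 CPM (32.8 to 45.5), neutrophil-like cells at 31.6 CPM (25.2 to 39.2) and epithelial-like cells at 26.6 CPM (21.8 to 32.3). B-like cells had 8.82 CPM (5.86 to 12.8) and plasmacytoid dendritic-like cells had 0 UMIs, with an upper bound of 12.1 CPM. Endothelial-like cells stood above T-like cells by 3.38-fold (2.58 to 4.47) and above B-like cells by 4.39-fold (2.92 to 6.83).

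Prkab2 ran in another order, with its lowest level in the epithelium. Epithelial-like cells held 13 UMIs, or 3.36 CPM (1.79 to 5.75), while monocyte-like cells had 16.3 CPM (9.67 to 25.8) and dendritic-like cells 16.4 CPM (8.96 to 27.5). The level was 3.04-fold (1.69 to 5.95) higher in interstitial macrophage-like than in epithelial-like cells and 3.07-fold (1.61 to 6.26) higher in endothelial-like cells. Prkab2 made up 11.2% (6.10 to 18.4) of β UMIs in epithelial-like cells, 21.1% (15.5 to 27.5) in endothelial-like cells and 22.4% (14.9 to 31.5) in neutrophil-like cells. It made up 51.2% (43.3 to 59.0) in interstitial macrophage-like, 60.0% (40.6 to 77.3) in monocyte-like and 70.0% (45.7 to 88.1) in dendritic-like cells. Within the epithelium it was 5 of 90 β UMIs in ATII-like cells (5.56%, 1.83 to 12.5) and 4 of 11 in ATI-like cells (36.4%, 10.9 to 69.2). The ATI over ATII ratio of Prkab2 levels was 7.30 with a wide interval (1.45 to 33.9), on 4 and 5 UMIs.

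The γ subunits bind the adenine nucleotides. Prkag1 lay between 22.5 and 42.5 CPM in 10 of the 13 classes, with natural killer (NK)-like cells at 42.5 CPM (28.2 to 61.4) and neutrophil-like cells at 40.0 CPM (32.7 to 48.4). Epithelial-like cells had 24.6 CPM (19.9 to 30.0), and the neutrophil over epithelial ratio was 1.63 (1.22 to 2.17). Prkag2 lay between 4.57 and 10.9 CPM in 11 classes and was higher in 2 small ones. Mast or basophil-like cells had 9 UMIs (34.1 CPM, 15.6 to 64.8) and plasmacytoid dendritic-like cells had 9 UMIs (29.4 CPM, 13.5 to 55.9). In those classes Prkag2 was 64.3% (35.1 to 87.2) and 75% (42.8 to 94.5) of γ UMIs, against 18.9% (13.3 to 25.7) in endothelial-like and 28.6% (21.1 to 37.0) in epithelial-like cells. Both classes are the ones whose neutrophil or monocyte marker levels are given above, and neutrophil-like and monocyte-like cells themselves had Prkag2 at 9.52 and 10.9 CPM. Prkag3, the third γ gene, had 2 UMIs in epithelial-like cells.

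Among the LKB1 partners, Cab39, which encodes MO25α, had its highest levels in neutrophil-like, alveolar macrophage-like, NK-like and epithelial-like cells. In that order they were 86.4 CPM (75.56 to 98.4), 85.8 CPM (80.2 to 91.7), 82.0 CPM (61.6 to 107) and 81.0 CPM (72.3 to 90.5), 4 levels that did not differ beyond counting error. T-like cells had 62.9 CPM, endothelial-like cells 61.7 CPM, interstitial macrophage-like cells 43.1 CPM and monocyte-like cells 41.7 CPM, and the lowest level was 34.3 CPM (19.2 to 56.6) in stromal-like cells. Epithelial-like cells stood above interstitial macrophage-like cells by 1.88-fold (1.61 to 2.19).

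Cab39l, which encodes MO25β, shared the high epithelial level but not the neutrophil one. It was highest in epithelial-like cells at 41.1 CPM (35.0 to 48.1), followed by B-like cells at 34.0 CPM (27.9 to 41.1), and lowest in neutrophil-like cells at 9.52 CPM (6.16 to 14.05). The epithelial over neutrophil ratio was 4.32 (2.82 to 6.88). Cab39l was 33.7% (29.4 to 38.1) of MO25 UMIs in epithelial-like, 38.4% (32.7 to 44.4) in B-like, 20.2% (17.9 to 22.7) in alveolar macrophage-like and 9.92% (6.52 to 14.3) in neutrophil-like cells. The neutrophil share lay below the intervals of these 3 classes.

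Strada, which encodes STRADα, was raised in B-like cells, where 70 UMIs gave 22.0 CPM (17.2 to 27.9), against 8.54 CPM (5.88 to 12.0) in epithelial-like while alveolar macrophage-like cells had 5.23 CPM (3.92 to 6.84). The B-like level was 2.58-fold (1.68 to 4.03) above the epithelial and 4.21-fold (2.91 to 6.14) above the alveolar macrophage level. Mast or basophil-like cells had 26.6 CPM from 7 UMIs (10.7 to 54.7), which did not separate them from B-like cells. The B-like level was also not separated from NK-like cells (ratio 1.61, 0.803 to 3.68) or monocyte-like cells (1.62, 0.919 to 3.05). Stradb lay between 2.29 and 9.13 CPM in all 13 classes. Ratio intervals between classes are not adjusted for the number of pairs, which was 78 for each gene other than Prkaa2. In alveolar macrophage-like cells Stradb made up 58.6% (49.6 to 67.2) of STRAD UMIs, against 29.3% (20.6 to 39.3) in B-like cells. Strada overlaps Ccdc47 and Gm25556 on its own strand in GENCODE vM21, none of them at its 3′ end. The other 9 genes overlap no gene on their own strand.

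Stk11, which encodes LKB1 itself, was highest in neutrophil-like cells at 48.7 CPM (40.7 to 58.0) and lay between 13.7 and 30.8 CPM in the other 12 classes, with epithelial-like cells at 21.2 CPM (16.9 to 26.3). The trap cuts Stk11 transcripts within the first intron in recombined cells. The value of every class, the epithelial one included, is a mixture over both cohorts and all allele states. The paper reports that Lkb1 rose in all cellular compartments once the trap was removed.

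The epithelium, the neutrophils and the 2 macrophage classes were next set against other cells by a ratio of CPM with 1 CPM added, and a ratio of at least 2 was called. Genes needed 200 UMIs over the compared cells, a minimum that Prkaa2 did not reach. In epithelial-like cells against the median of the other classes, 9 of the 10 genes were compared, of which Prkab1 was higher (log2 ratio 1.18) and Prkab2 was lower (−1.26). Of all 10180 genes compared, 16.8% were higher and 13.9% were lower, so 1 of 9 in each direction is close to the background. The median log2 ratio was 0.10 over the 9 genes and −0.01 over all genes. Cab39l (0.93) and Cab39 (0.72) lay below the 2-fold line.

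In neutrophil-like cells Prkaa1 (1.11) and Prkab1 (1.42) were higher and Cab39l (−1.14) was lower, where 16.8% of all genes were higher and 18% were lower. The median log2 ratio was 0.08 for the 9 genes and −0.15 for all. A count of 2 and 1 of 9 is again near the background.

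**Figure D3:**
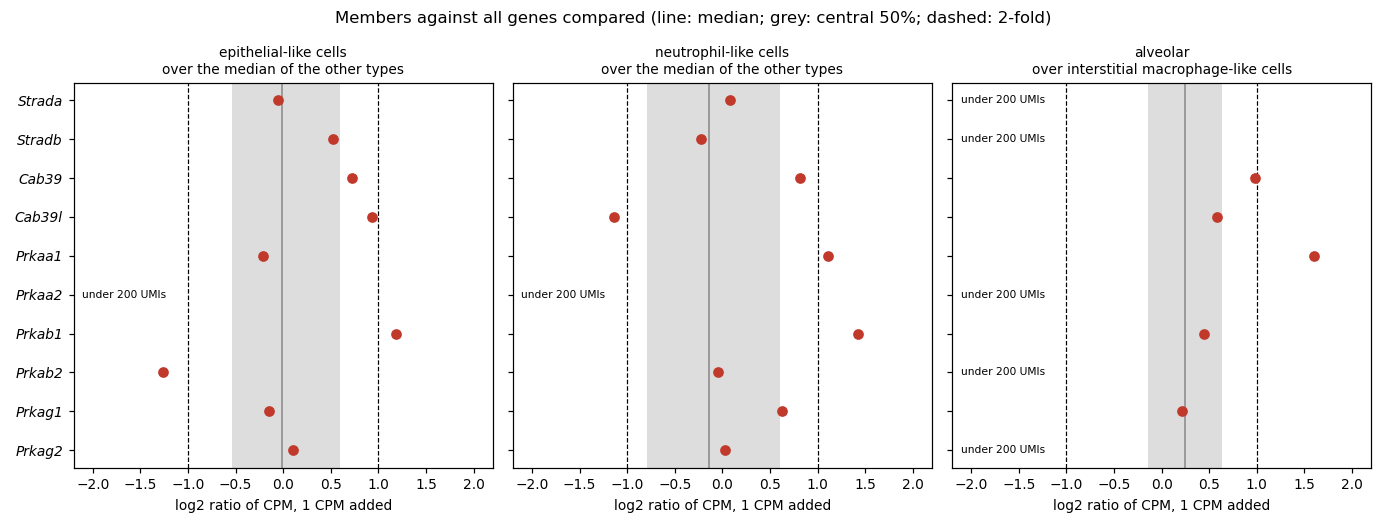
Log2 ratio of CPM with 1 CPM added (x axis) for each of the 10 genes (y axis) in 3 comparisons. The grey band is the central 50% of all genes compared, the solid line their median and the dashed lines mark 2-fold; genes with under 200 UMIs are named without a point. Prkab1 (1.18) and Prkab2 (−1.26) lie outside 2-fold in epithelial-like cells and Prkaa1 (1.60) in alveolar over interstitial macrophage-like cells.

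The alveolar and interstitial macrophage-like classes have like cell numbers and depths, which allows the closest comparison. Of the 5 genes with enough UMIs, Prkaa1 was called higher in alveolar macrophage-like cells and none was called lower, where 13% of 7201 genes were higher and 7.26% were lower. Prkaa1 went from 10.5 CPM in interstitial to 33.7 CPM in alveolar macrophage-like cells, a ratio of 3.21 (2.53 to 4.12). Cab39 had a ratio of 1.99 (1.76 to 2.26), just under the 2-fold line, Cab39l 1.53 (1.22 to 1.93) and Prkab1 1.41 (1.06 to 1.87). Prkag1 did not differ beyond counting error (1.17, 0.964 to 1.41). Stk11 went the other way, with a ratio of 0.742 (0.596 to 0.923), though not in the cells with little reporter given next. The median log2 ratio was 0.58 for the 5 genes and 0.25 for all.

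The TdTomato reporter, at 5444 CPM in epithelial-like cells, also reached 2685 CPM in alveolar macrophage-like cells, against 41.0 to 203 CPM in the other classes. The alveolar macrophage-like cells were therefore split by the reporter. The 1714 cells with at least 2 TdTomato UMIs had Prkaa1 at 34.3 CPM (30.7 to 38.3), and the 157 cells with fewer had 24.6 CPM from 17 UMIs (14.4 to 39.4). The ratio over interstitial macrophage-like cells was 3.28 (2.58 to 4.20) in the first set and 2.35 (1.31 to 3.99) in the second. Cab39 gave 2.01 (1.78 to 2.29) and 1.68 (1.22 to 2.27). Both genes were thus above the interstitial level in both sets, and the intervals of the 2 sets of alveolar cells overlapped for either gene. A cell with under 2 TdTomato UMIs can still carry the reporter. For Stk11 the direction turned, from 0.702 (0.559 to 0.880) in the cells with the reporter to 1.29 (0.756 to 2.07) in those with little of it, on 19 UMIs. In the latter set the ratios of Prkab1 (0.892, 0.318 to 2.03), Prkag1 (0.901, 0.483 to 1.55) and Prkag2 (1.72, 0.790 to 3.35) also lay on the other side of 1 from all alveolar macrophage-like cells, each with an interval that included 1.

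**Figure D4:**
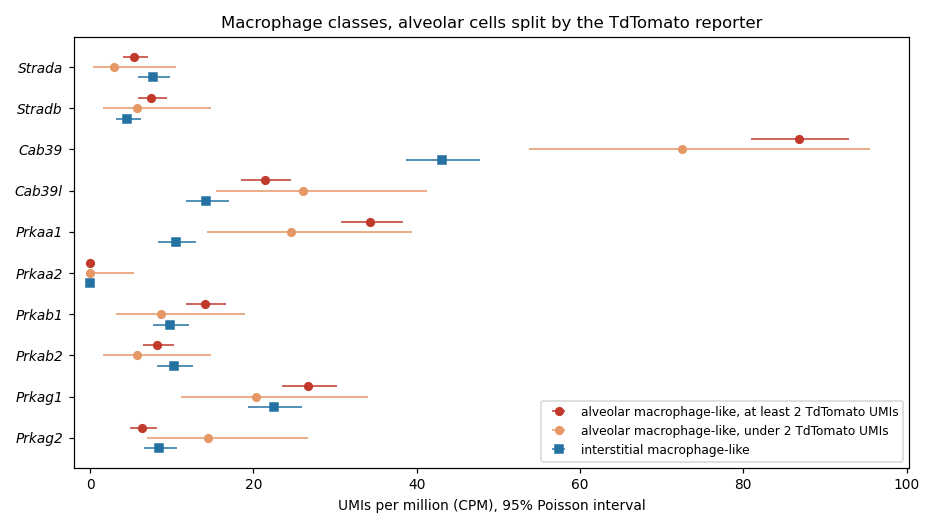
Level of the 10 genes (x axis, CPM, with 95% Poisson intervals) in alveolar macrophage-like cells with at least 2 TdTomato UMIs (1714 cells) or fewer (157 cells) and in interstitial macrophage-like cells. Prkaa1 and Cab39 lie above the interstitial level in both sets of alveolar cells, at 34.3 and 24.6 CPM against 10.5 CPM for Prkaa1.

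ATI-like over ATII-like cells could be compared for Cab39 alone, which was not called (1.40, 0.956 to 1.99), where 8.46% of 1926 genes were higher and 11.9% were lower. The other 9 genes had under 200 UMIs over the ATI-like and ATII-like cells together.

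The wider pathway was read from lists of other kinases upstream of AMPK, AMPK regulators and genes of AMPK substrates. In epithelial-like cells 1 of the 2 upstream kinases compared was lower, namely Camkk2, a calcium-dependent AMPK kinase. Camkk2 had 9.32 CPM (6.52 to 12.9) there against 139 CPM (118 to 162) in monocyte-like cells, its highest class. The list also holds Camkk1, which had too few UMIs to be compared. Camkk1 went the other way, at 8.54 CPM (5.88 to 12.0) in epithelial-like cells against a median of 1.13 CPM in the other classes. Neutrophil-like cells had a like Camkk1 level of 8.76 CPM (5.55 to 13.1). Of the 9 regulators, Sesn2 (30.3 CPM) and Sesn3 (58.5 CPM), stress-induced sestrins, were higher in epithelial-like cells than the median of the other classes, Sesn1 (8.54 CPM) was lower, at the 2-fold line, and 6 were within 2-fold. Neither was highest there. Sesn3 had 87.9 CPM in T-like, 83.8 CPM in B-like and 77.4 CPM in NK-like cells, and Sesn2 had 69.3 CPM in neutrophil-like cells. Among 9 substrate genes compared, 3 were higher: Acaca, the fatty acid synthesis enzyme acetyl-CoA carboxylase 1 (57.2 CPM, 49.9 to 65.2), Gys1, muscle-type glycogen synthase (22.2 CPM), and Tsc2, which restrains mTORC1 (29.2 CPM). Tbc1d1, a Rab GTPase-activating protein of glucose uptake (3.36 CPM), and Pfkfb3, a glycolytic regulator (5.18 CPM), were lower, and 4 were within 2-fold. The share called in the 9 substrate genes was 5 of 9, where 16.8% of all genes were higher and 13.9% lower.

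In neutrophil-like cells Sesn2 was higher (69.3 CPM, 59.6 to 80.1) and 8 of 9 regulators were within 2-fold. Of 9 substrate genes, Ulk1, the autophagy-initiating kinase (66.6 CPM, 57.1 to 77.3), and Pfkfb3 (39.6 CPM) were higher, Rptor, the mTORC1 scaffold (5.71 CPM), was lower, and 6 were within 2-fold. These counts, 1 of 9 regulators and 3 of 9 substrate genes, stand beside 16.8% of all genes higher and 18% lower. Pfkfb3 thus had opposite calls in the epithelium and the neutrophils. Between macrophages, 1 of 7 regulators was called, Fnip2, a partner of folliculin, with 49.3 CPM (45.04 to 53.8) in alveolar and 10.1 CPM (8.06 to 12.5) in interstitial macrophage-like cells, and 0 of 6 substrate genes and 0 of 2 upstream kinases were called. Among all genes 13% were higher and 7.26% lower, so 1 of 7 is close to the background.

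**Figure D5:**
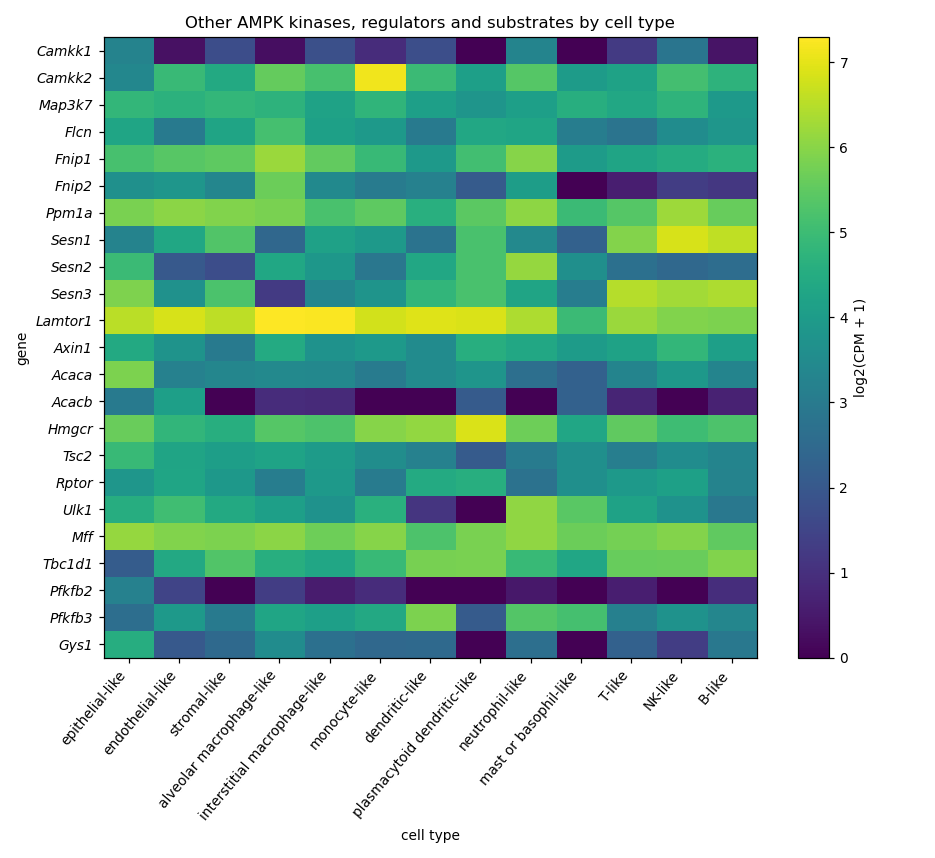
Levels of other AMPK kinases, AMPK regulators and AMPK substrate genes (rows) in 13 cell types (columns), colored by log2(CPM + 1). Camkk2 is brightest in monocyte-like cells (139 CPM), Acaca in epithelial-like cells (57.2 CPM) and Sesn2 and Ulk1 in neutrophil-like cells (69.3 and 66.6 CPM).

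For the 3 genes with the widest range over classes among those with at least 500 UMIs, the genes most alike in pattern were sought among 7601 genes by the Pearson correlation of log2(CPM + 1) over the 13 classes. Prkaa1 was most like Osbp (0.880), an oxysterol-binding lipid transfer protein also highest in alveolar macrophage-like cells, then Atxn2l (0.835) and Ulk2 (0.811). Prkab1 was most like Numb (0.896), 3110002H16Rik (0.893) and Armc8 (0.891), and Prkag1 was most like Rnf103 (0.923), Lonp2 (0.895) and Ss18 (0.890). The 13 points share 1 library pool, differ in depth, and the values are the highest of a large search, so they are descriptions.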

How the data were processed

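Microdissected lung tumors were dissociated and viable cells were profiled by the authors with 10x Chromium 3′ v3 single-cell RNA-seq. The deposited values are raw UMI counts. Cell Ranger 3.0.2 stands in the file header, and mm10 is named in the submitters' processing notes. The 20351 cells carry no mouse, and no columns of other samples were present. Cells with at least 200 genes and at most the 98th percentile of genes (2713) and of the mitochondrial share (13.4%) were kept. A cell entered a class with at least 3 markers detected and 2 more than for any other list. This left out 3652 cells, and 2885 gated cells lay at the edge of the gate. ATII-like and ATI-like cells were gated within the epithelium. UMIs were summed per class, with exact Poisson, Clopper-Pearson or conditional ratio intervals (95%) in scipy 1.17.1. A count of 0 was given the limit of 3 counts where so stated, or else the interval's upper bound. Shares of cells used 1000 UMIs per cell. Genes named are the 10 members, Stk11, Prkag3, the pathway lists and, for 3 members, their 3 most alike genes. Members and lists were chosen with earlier results of these data known. Doublets were not removed. Scrublet (scanpy 1.11.5) called 94 cells (0.482%), too few for it to have worked. Clusters (Seurat 5.3.0), other gates, filters, thinning depths, folds, minimums and denominators were alternatives. The interval scripts were tested on simulated data. Protein identity was computed from translated GENCODE vM21 coding sequences. A further allele that all 4 mice share is not reported here.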

Additional observations from a re-analysis of the deposited data

How the results depend on the processing

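Cells are not mapped to mice, so no replicate spread and no cohort difference can be given, and small classes rest on few UMIs. No paired analysis was possible because the cells carry no mouse or replicate. Of 48 counts of called genes, 11 moved. In epithelial-like cells the count was 2 in the setting reported, 4 at 1.5-fold, 0 with 10 CPM added and 1 with the mean over cells or with clusters at resolution 0.1 or 0.5, which kept Prkab2. In neutrophil-like cells it was 3, 5 at 1.5-fold and 0 with 10 CPM added. Between macrophages it was 1, and 2 at 1.5-fold, with a stricter gate or without upper limits, where Cab39 joined Prkaa1. The count was 0 without TdTomato-carrying cells, where Prkaa1, with 17 alveolar UMIs, did not reach the minimum and no member was called. There the Prkab1 log2 ratio of alveolar over interstitial macrophage-like cells was −0.18 from 6 alveolar UMIs. It was the only value whose interval had left out equality and whose sign turned among the 1701 values of the 10 genes computed under alternatives, while Prkag1 and Prkag2, whose intervals had included it, changed sign too. ATI-like over ATII-like cells gave 0 in each setting. Over all genes, 1.5-fold called 48.9% in epithelial-like, 58.2% in neutrophil-like and 39.2% in alveolar over interstitial macrophage-like cells and 40.4% in ATI-like over ATII-like cells, and 10 CPM added called 17.5% and 15.5% in the first 2. In epithelial-like cells the mean over cells called 30.9% of all genes, and clusters at resolution 0.1 and 0.5 called 31.6% and 31.9%. Between macrophages the stricter gate called 20.4%, no upper limits 20.3% and leaving out TdTomato-carrying cells 20.9%. None of the Prkaa2 shares of α UMIs moved beyond its interval. Of 1150 levels, 98 moved beyond their interval, 79 of them with a denominator that left out mitochondrial and abundant genes. Shares of cells with a UMI moved with thinning depth in 203 of 390 values.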

Other observations

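Cells that the marker gate left out gave levels between those of the classes. The 3652 ungated cells had Prkab2 at 12.1 CPM (10.1 to 14.5) and Prkab1 at 9.21 CPM (7.41 to 11.3), Prkaa1 at 11.3 CPM (9.33 to 13.6) and Prkaa2 at 0.304 CPM from 3 UMIs (0.0626 to 0.887). The 863 cells removed by the filter, with a median depth of 2557 UMIs, had Cab39 at 82.2 CPM (74.8 to 90.2) and Prkaa2 at 5 CPM (3.30 to 7.28). The 48 plasma-like cells, too few for a class, held 316577 UMIs with Cab39 at 19.0 CPM from 6 UMIs (6.96 to 41.2), Cab39l at 6.32 CPM from 2 UMIs, 1 UMI each of Prkab1, Prkag1 and Prkag2, and 0 UMIs of Strada, Stradb, Prkaa1, Prkaa2 and Prkab2, each with an upper bound of 11.6 CPM. The single cell gated as ciliated or club held 2 UMIs of Prkaa2 among 3737 and none of the other 9 genes.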
